A study of Drosophila melanogaster with 36 samples.

Results

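Dawn is the time of day at which ventral lateral clock neurons (LNv) of the fly brain pass from the night into the morning, and 70 genes reached their fitted peak there, between ZT21 and ZT03. ZT is zeitgeber time, the hour on the daily light schedule. The genes were chosen by a rule on the same 36 libraries: a mean level of at least 5 TPM (a gene's length-normalised share of the transcripts in a library, on a fixed total), and a fitted 24 h curve with an amplitude of at least 0.4 on the log2(TPM + 1) scale. That curve also had to account for at least 35% of the variance left after the means of the 3 conditions, and its peak had to lie from ZT21 to under ZT03. Of 6530 genes at or above 5 TPM, 73 met the rule. The clock gene Clk, the neuropeptide gene sNPF and the activity-regulated gene sr were set aside by name, and 0 respiratory chain genes had passed. The values that chose the genes are given as description, with no test.

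In the fly clock, CLK and CYC switch on genes such as per, tim, vri and Pdp1 in the evening. VRI and PDP1 proteins then act on a second loop in which Clk transcripts are highest around dawn, out of phase with per and tim. LNv neurons carry the PDF peptide, and their small and large classes have been tied to morning activity, arousal and light input, with electrical activity and output that change over the day.

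The libraries held RNA from sorted LNv neurons of female flies of strain w1118 background, labelled wild type and carrying membrane GFP under Pdf control, so that all groups share the reporter and the sort. The sucrose and yeast of the food were at 1.5x in HC25 and HC18 and at 0.5x in LC25, and the temperature was 25 °C in HC25 and LC25 and 18 °C in HC18. Each condition had 12 libraries, 1 per time point every 2 h from ZT02 to ZT24, with no stated age of the flies or number pooled. The question the design poses is which transcripts cycle in these neurons, and whether food or temperature alters them. Because there is 1 library per time and condition, p-values measure only the spread of these libraries around a fitted model, which may be technical. Depth behind TPM values is unknown. In bulk RNA of sorted cells, fewer cells of a type and less RNA per cell cannot be told apart.

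A few libraries stood apart and are left out in turn beside the results they touch. They are the HC25 library of ZT06, a set of 3 (that library with HC25 ZT08 and HC18 ZT24), and 4 HC18 libraries (ZT06, ZT08, ZT10 and ZT22). The set of 3 was fixed beforehand as those that differ most from the rest, and no measure of that difference is given here. In the 4 HC18 libraries the abundant gene fmt stood between 121 and 1603 TPM, against a lowest value of 6458 TPM in the rest. Pdf, the defining LNv transcript, averaged 236859 TPM. Of 7 glial markers repo, moody and wrapper averaged under 1 TPM, while Gs2 averaged 52.3 TPM and the list's sum reached 1187 TPM in the HC25 library of ZT08. Of 7 markers of other clock neurons CCHa1, Trissin and VGlut averaged under 1 TPM and Nplp1, AstC, ITP and Dh44 averaged 114, 99.9, 23.8 and 11.7 TPM, with highs of 861 TPM for AstC and 660 TPM for ITP. Summed over 7 glial markers the dawn libraries (ZT22, ZT24 and ZT02) lay between 11.7 and 77.5 TPM and the dusk libraries (ZT10, ZT12 and ZT14) between 11.5 and 98.8 TPM. Dawn and dusk ranges of summed photoreceptor, fat body, haemocyte, muscle and other clock neuron markers overlapped too. At other times the photoreceptor sum reached 1032 TPM in the LC25 library of ZT18, against a median of 43.2 TPM. The fat body sum reached 258 TPM in the HC25 library of ZT08, against a median of 21.9 TPM. Markers of other transmitters (5 genes) had a median sum of 90.7 TPM at dawn and 134 TPM at dusk, and a 24 h curve took 29.4% of the sum's variance. For 6 Kenyon cell markers it took 39.6%, with a peak at ZT18.2. The part of other cells in the rhythms was not tested.

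All 70 genes code for proteins, and 24 are known only by a CG number. The fitted peak-to-trough range had a median of 2.61-fold and ran from 1.75-fold for sns to 34.1-fold for CCHa1-R. In 15 genes it was at least 4-fold and in 11 under 2-fold. Mean levels ran from 5.38 TPM for SkpB to 1212 TPM for CG17777, with a median of 26.9 TPM. Peaks before ZT24 numbered 37 and later ones 33. The day had other, larger groups: of 678 genes past the same level, amplitude and share thresholds at any time, 161 peaked between ZT15 and ZT18 and 136 between ZT6 and ZT9.

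**Figure D1:**
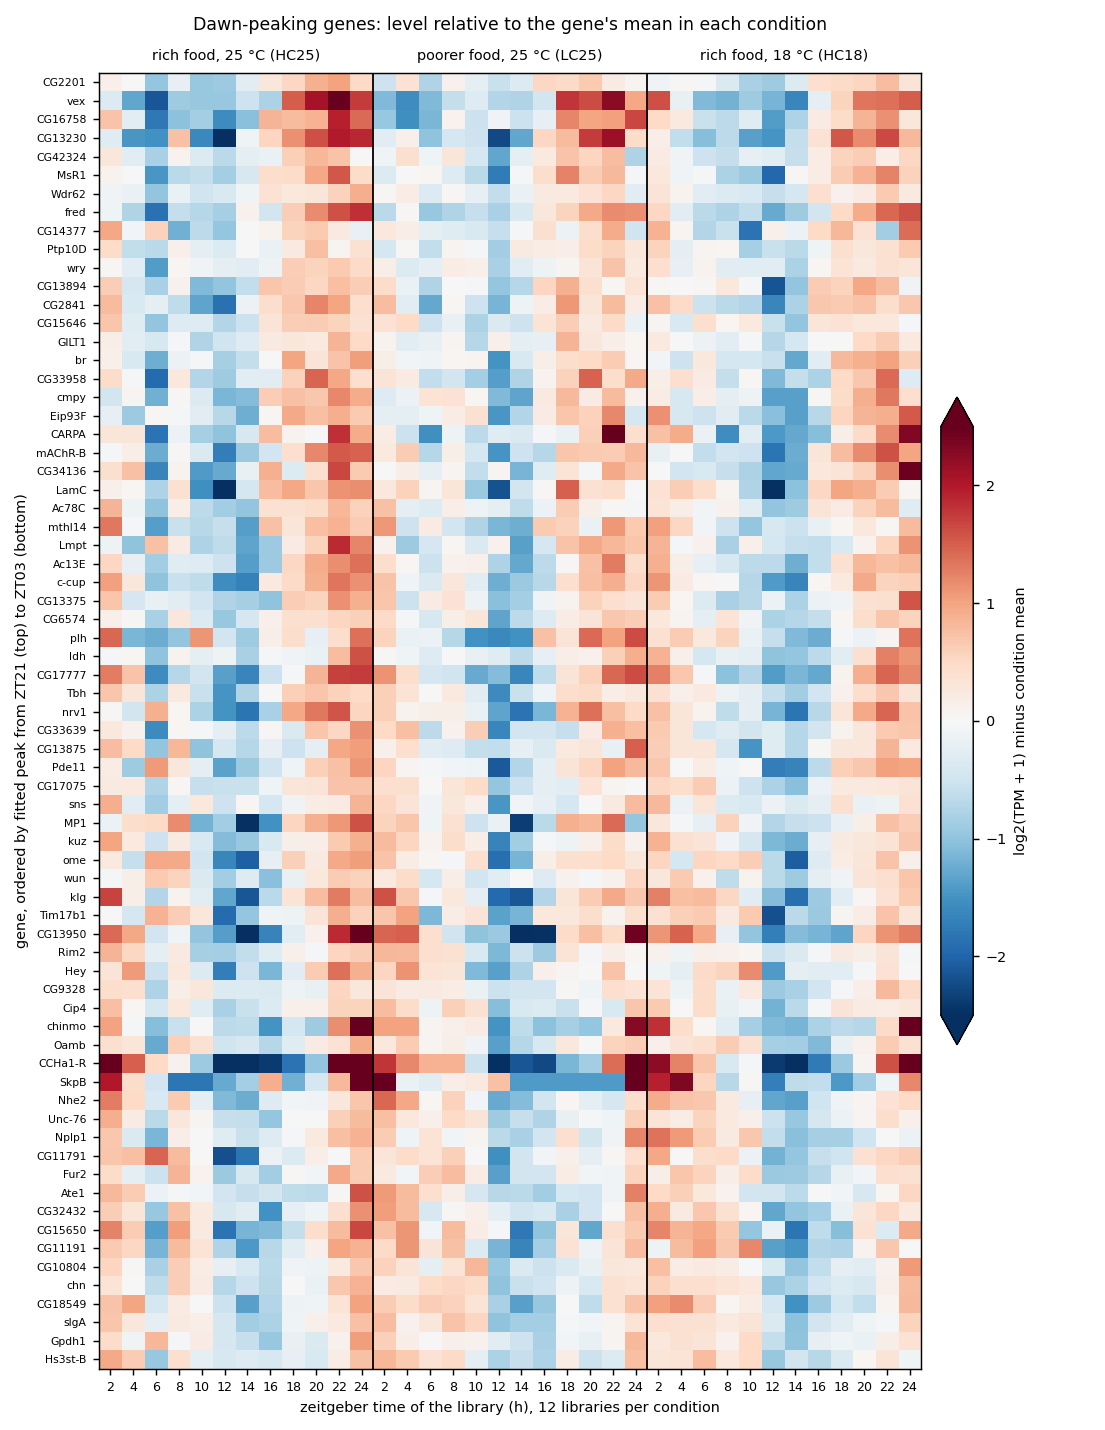
Level of each of the 70 genes (rows, ordered by fitted peak from ZT21 to ZT03) in each of the 36 libraries (columns, zeitgeber time in h within each condition), as log2(TPM + 1) minus the gene's mean in that condition. Values below the mean (blue) gather at ZT12 and ZT14 in every condition, and values above it (red) at ZT22, ZT24 and ZT02. The HC25 library of ZT06 is blue for many genes.

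Most lows fell at dusk and most highs around dawn. Averaged over the conditions, 30 genes had their lowest level at ZT12 and 28 at ZT14, while the highest level fell at ZT22 in 21 genes, at ZT24 in 20 and at ZT02 in 17. In the rest the highest level fell at ZT18 (4 genes), ZT20 (4), ZT04 (2), ZT06 (1) or ZT08 (1). In 24 genes all 3 dawn libraries lay above all 3 dusk libraries in each condition, against 0.335% of all genes tested. The rule used this contrast, so the count only describes the genes. In 3 genes (Tim17b1, CG14377 and Gpdh1) the ranges overlapped in every condition. Of the 70 genes 26 had the lowest HC25 value in the library of ZT06, which stands apart, and 4 had their LC25 low at ZT06 and 0 their HC18 low.

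Receptors held the gene with the widest range. CCHa1-R, the receptor of the neuropeptide CCHamide-1, ran from 1.09 TPM through a median of 11.4 to 269 TPM in HC25. In LC25 it ran from 1.70 through 18.0 to 147 TPM, and in HC18 from 1.42 through 19.6 to 140 TPM. In each condition the low lay at ZT12 or ZT14 and the high at ZT24, and dawn and dusk libraries did not overlap. The fitted amplitude was 2.55 ± 0.17 (SE, n = 36 libraries, log2 scale) with a peak at ZT1.78. Its ligand gene CCHa1 averaged 0.51 TPM in these libraries.

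mAChR-B, which encodes a muscarinic acetylcholine receptor, had a range of 4.29-fold around a peak at ZT22.5. Its HC25 values ran from 2.06 through 9.03 to 28.1 TPM, its LC25 values from 1.75 through 7.79 to 12.5 TPM, and its HC18 values from 2.44 through 10.5 to 36.1 TPM. The low was at ZT12 in all 3 conditions. MsR1, a receptor of the peptide myosuppressin, varied 3.64-fold with a peak at ZT21.2, and mthl14, a predicted G protein-coupled receptor, varied 3.15-fold with a peak at ZT22.9. Oamb, an octopamine receptor gene, had a 2.15-fold range and peaked at ZT1.69. Its 18 °C values are described with the level tests.

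A list of 34 neuropeptide and amine receptors, drawn up with earlier results of these data known, held 22 genes at 5 TPM or more. Of these 22 genes 13 passed the level, amplitude and share thresholds at some time of day, and 3 were dawn genes: CCHa1-R, Oamb and mAChR-B. Of all 6530 genes the same counts were 678 and 70. Octbeta1R, another octopamine receptor gene of that list, ran in another phase, with an amplitude of 0.74 and a peak at ZT8.40.

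Enzymes of cyclic nucleotide signalling formed a group of 4. Ac13E, an adenylyl cyclase gene, was the most abundant of them at 97.4 ± 50.7 TPM (SD, n = 36). It ran from 30.2 through 66.7 to 207 TPM in HC25, from 34.0 through 88.8 to 208 TPM in LC25, and from 39.3 through 91.6 to 173 TPM in HC18. The low lay at ZT14 in each condition, and the lowest dawn library, LC25 at ZT02, held 113.6 TPM. The fitted range was 3.38-fold with a peak at ZT23.4. Both of its major transcripts (each at least 20% of the gene's TPM) peaked at dawn, at ZT23.1 and ZT0.02.

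Ac78C, another adenylyl cyclase gene, varied 2.01-fold with a peak at ZT22.7. Pde11, a phosphodiesterase gene that breaks down cyclic nucleotides, varied 3.42-fold with a peak at ZT0.06, and CG33958, a predicted guanylate cyclase gene, 3.23-fold with a peak at ZT22.1. Genes of synthesis and of breakdown stood high at the same time of day. Of the 16 genes of the cAMP list at 5 TPM or more, 8 passed the level, amplitude and share thresholds, against 678 of all 6530 genes. The other 5 peaked away from dawn: CrebB at ZT4.32, the protein kinase A genes Pka-C1 at ZT7.42, Pka-R1 at ZT8.76 and Pka-R2 at ZT12.4, and Pde8 at ZT15.1. The cyclase gene rut had an amplitude of 0.06 and the phosphodiesterase gene dnc one of 0.10.

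Among the 6 genes of peptides, amines and proteases, Tbh had the highest level. It encodes tyramine beta-hydroxylase, which makes octopamine from tyramine. Its values ran from 238 through 809 to 1078 TPM in HC25, from 224 through 777 to 1018 TPM in LC25, and from 298 through 592 to 878 TPM in HC18. Dawn libraries stayed above dusk libraries in each condition. Tdc2, which encodes the enzyme of the preceding step, averaged 133 TPM and had an amplitude of 1.34 with a peak at ZT8.36, far from that of Tbh. Of the other markers of monoaminergic neurons ple averaged 1.67 TPM, SerT 1.88 TPM, Vmat 5.49 TPM and DAT 14.9 TPM. The 6 measured markers of that list, Tbh included, summed to between 768 and 1259 TPM in dawn libraries and to between 462 and 778 TPM in dusk libraries.

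Nplp1, a neuropeptide precursor gene also used as a marker of other clock neurons, varied 2.19-fold with a peak at ZT2.26. Its peaks in the separate conditions were the farthest apart of all 70 genes, spread over 5.55 h. Fur2, a furin-like convertase gene, varied 2.08-fold, ome, a dipeptidyl peptidase gene, 2.68-fold, and GILT1, a thiol reductase gene, 1.79-fold. MP1, a serine protease gene known from melanisation, varied 3.12-fold. Of 16 genes of peptide processing and release at 5 TPM or more, Fur2 was the only dawn gene, against 70 of all 6530 genes. Its fitted peak was at ZT2.37, but its highest mean over the conditions was at ZT08, with 23.5 TPM against 18.2 TPM at ZT02.

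Transport across membranes was represented by 3 genes. nrv1, which encodes a beta subunit of the sodium pump, ran from 32.5 through 122 to 352 TPM in HC25, from 23.7 through 97.2 to 229 TPM in LC25, and from 35.4 through 148 to 353 TPM in HC18. The low was at ZT14 in each condition and the fitted range was 4.43-fold, with a peak at ZT23.7. Of the other pump genes Atpalpha, the alpha subunit, averaged 1192 TPM with an amplitude of 0.17, and nrv3 averaged 1748 TPM with an amplitude of 0.26 and a peak at ZT22.4. nrv2, a further beta subunit gene and a glial marker, averaged 15.4 TPM with an amplitude of 0.26. Nhe2, a sodium-proton exchanger gene, ran from 18.5 to 111 TPM in HC25, from 17.4 to 120 TPM in LC25 and from 16.9 to 85.7 TPM in HC18, with its high at ZT02 in all 3. Rim2, a mitochondrial nucleotide carrier gene, varied 2.04-fold.

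Cell surface genes numbered 9. klg, an adhesion gene of the immunoglobulin class with a known part in memory, ran from 13.2 to 200 TPM in HC25, from 12.1 to 175 TPM in LC25 and from 16.2 to 151 TPM in HC18. In each condition its low was at ZT14 and its high at ZT02, and the fitted range was 5.34-fold with a peak at ZT1.10. The adhesion gene fred varied 4.78-fold and peaked at ZT21.5. kuz, a metalloprotease gene of Notch signalling, varied 2.84-fold, and cmpy, whose product binds a BMP ligand at the neuromuscular junction, 2.61-fold. Hs3st-B, a heparan sulphate sulphotransferase gene, varied 2.18-fold, and wun, a lipid phosphate phosphatase gene, 1.96-fold. The phosphatase gene Ptp10D, the Notch-ligand-like gene wry and the adhesion gene sns lay at the amplitude threshold, at 0.41, 0.41 and 0.40. A separate list of 49 adhesion and guidance genes did not hold the genes just named. Of its 41 genes at 5 TPM or more 17 cycled at some time and 0 were dawn genes. Of all 6530 genes it was 678 and 70.

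Of genes of cell structure, LamC, a nuclear lamin gene, varied 3.82-fold with a peak at ZT22.6. The LIM-domain gene Lmpt varied 2.61-fold, Unc-76, whose product links cargo to kinesin in axons, 2.16-fold, the F-BAR gene Cip4 2.02-fold and the WD-repeat gene Wdr62 1.83-fold. SkpB, of the Skp family of ubiquitin ligase subunits, had the lowest mean of all, 5.38 TPM, and was listed at 0 in 2 HC25 and 5 LC25 libraries.

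The transcription factor gene chinmo, a BTB zinc finger gene known for setting neuronal identity over time, had the narrowest high. In HC25 it stood at 300 TPM at ZT24, against 51.8 TPM at ZT22 and 46.6 TPM at ZT02. At ZT24 it reached 107 TPM in LC25 and 142 TPM in HC18, while the medians were 15.8 TPM in HC25, 22.8 TPM in LC25 and 14.8 TPM in HC18. In all 3 conditions the ZT24 library was the highest of the 12. Its mean over the conditions at ZT24 was 3.31 times that at the next-highest time, the largest such ratio among the 70 genes, followed by CCHa1-R with 2.38 and CG13950 with 2.28.

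Eip93F and br, both genes of the ecdysone response, varied 2.78-fold and 2.43-fold with peaks at ZT22.4 and ZT21.9. Hey, a Notch target gene of the bHLH class, varied 2.46-fold with a peak at ZT1.24, and chn, a zinc finger gene of neuronal development, 2.10-fold with a peak at ZT2.66. Of 20 nuclear receptor and neuronal transcription factor genes at 5 TPM or more, 5 cycled at some time and Eip93F, br and chinmo were dawn genes. Of all 6530 genes 678 cycled at some time and 70 were dawn genes.

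Genes of metabolism and mitochondria ran from 13.3 TPM for Tim17b1 to 260 TPM for Idh in mean level. Idh, which encodes a NADP-dependent isocitrate dehydrogenase, averaged 260 TPM and varied 2.42-fold. slgA, which encodes proline dehydrogenase, averaged 159 TPM and varied 2.22-fold, and Gpdh1, a glycerol-3-phosphate dehydrogenase gene, averaged 132 TPM and varied 2.05-fold. Ate1, an arginyltransferase gene, stood at 149 TPM in HC25 and 115 TPM in LC25 at ZT24 but at 58.6 TPM in HC18. The mitochondrial import gene Tim17b1 varied 2.51-fold and CG2201, a predicted choline kinase gene, 2.37-fold. None of 14 glycolysis and trehalose genes at 5 TPM or more was a dawn gene, although 9 of them cycled at another time. Of all 6530 genes 70 were dawn genes and 678 cycled at some time.

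The remaining 26 genes, 22 of them with CG numbers only, are given no role here. CG17777 was the most abundant dawn gene. It ran from 269 through 723 to 2834 TPM in HC25, from 318 through 991 to 3072 TPM in LC25, and from 353 through 955 to 2579 TPM in HC18. Every dawn library held at least 2065.5 TPM and every dusk library at most 615.3 TPM. The fitted range was 7.44-fold with a peak at ZT23.7, and the curve took 88.3% of the variance, the highest share of the 70. CG13950 varied 12.2-fold with a peak at ZT1.19, vex 8.31-fold at ZT21.1, CG13230 7.95-fold at ZT21.2 and CG16758 4.61-fold at ZT21.2. CARPA, CG15650 and c-cup varied 4.30-fold, 4.16-fold and 4.16-fold, and CG11191 averaged 334 TPM with a 3.14-fold range. CG2841, CG34136, CG18549, plh, CG11791, CG13375, CG13894, CG13875, CG32432, CG33639, CG14377, CG6574, CG17075, CG42324, CG10804, CG15646 and CG9328 varied between 1.80-fold and 3.69-fold.

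Of the clock genes, Clk had an amplitude of 1.68 with a peak at ZT2.80, while the curve of cry, with an amplitude of 0.36, took 13.05% of its variance and did not pass (limma adjusted p = 0.176). vri peaked at ZT14.9 and Pdp1 at ZT16.5, shortly after the ZT12 and ZT14 lows of the dawn genes. A link of vri or Pdp1 with the dawn genes was not tested. Among genes outside the group, Psc followed the mean standardised curve of the 70 most closely over the 36 libraries (Pearson r = 0.840), then gprs (0.810), Men-b (0.771), tadr (0.771) and CG13937 (0.771). These correlations share libraries and scaling with the curve and are descriptions only. Near the thresholds, sns (amplitude 0.40) lay just inside and Psc (0.398) just outside. By explained share CG14377 (35.05%) lay inside and CG32369 (34.8%) outside, and by level SkpB (5.38 TPM) inside and CG14253 (4.87 TPM) outside. By peak time CG2201 (ZT21.01) and Hs3st-B (ZT2.91) lay inside, and Gadd45 (ZT20.99) and CG1090 (ZT3.02) outside.

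The rule used all libraries, so a test needs libraries it did not see. The rule was therefore applied to the 24 libraries of 2 conditions at a time, and the 24 h rhythm of the genes it chose was tested in the 12 libraries of the third alone (limma, with Benjamini-Hochberg adjustment over all 8649 genes of at least 1 TPM). Rhythms with a dawn peak held in part in every condition. With HC18 held out, 72 genes were chosen and 34 of them had an adjusted p below 0.05 and a peak from ZT21 to under ZT03 in HC18, against 0.994% of all genes tested. With HC25 held out it was 16 of 63 genes, against 0.393%. With LC25 held out it was 17 of 86 genes, against 0.312%. Counting any peak time, 43 of the 72 genes passed in HC18, against 7.19% of all genes, 19 of 63 in HC25, against 3.14%, and 26 of 86 in LC25, against 5.04%. Whatever their p, 55 of the 72 genes had an HC18 peak from ZT21 to under ZT03, against 17.9% of all genes. In HC25 it was 49 of 63 genes, against 10.8%, and in LC25 56 of 86 genes, against 10.6%.

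**Figure D2:**
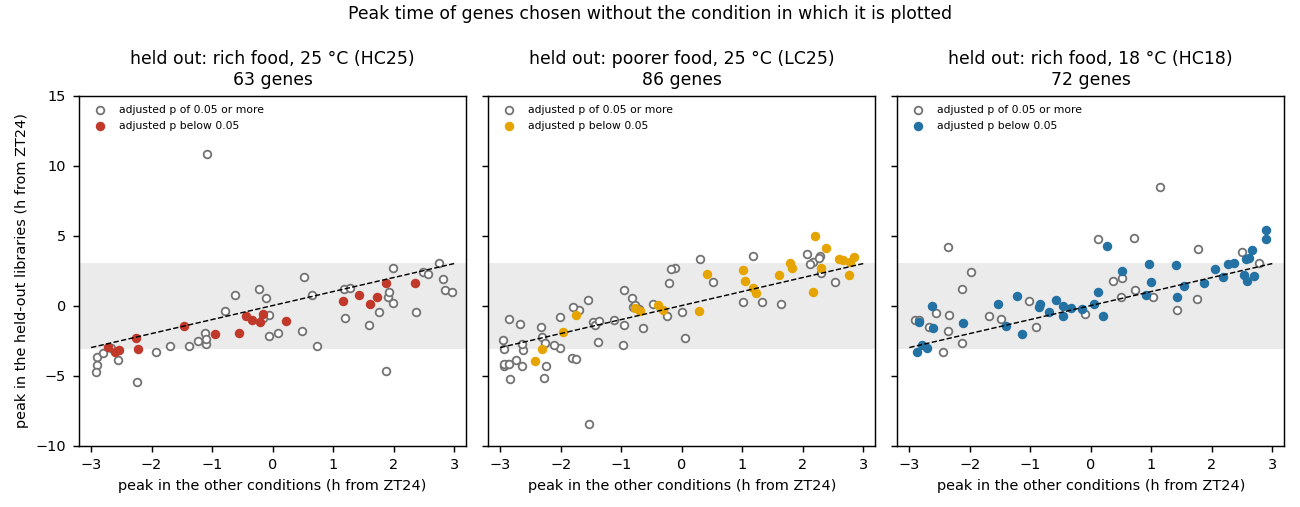
Fitted peak of each gene in the libraries of a held-out condition (vertical axis, hours from ZT24) against its fitted peak in the other conditions, which chose it (horizontal axis, hours from ZT24). Filled points passed an adjusted p of 0.05 in the held-out libraries, the grey band spans ZT21 to ZT03 and the dashed line marks equal peaks. Most points lie within 3 h of the line.

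In the held-out libraries the median amplitude was 0.72 in HC25, 0.56 in LC25 and 0.67 in HC18, beside 0.67, 0.68 and 0.66 in the libraries that chose the genes. The counts moved with the processing. Rescaling each library by its median ratio to the others gave 42 of 139 genes for HC25, 38 of 135 for LC25 and 59 of 122 for HC18, against 0.902%, 0.856% and 2.07% of all genes. Leaving out the 3 libraries that differ most, HC25 gave 31 of 66 genes, against 0.694%.

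CCHa1-R, CG13950, CG17777, klg, mAChR-B, c-cup, Ac13E and Nhe2 passed with a dawn peak in each of the 3 held-out conditions. Of all genes tested, at most 0.312%, the share in LC25, can have passed so in all 3. The 3 rounds are not separate tests, since the libraries that test a gene in 1 round help to choose it in the others. CCHa1-R had held-out amplitudes of 2.99 ± 0.31 in HC25, 2.32 ± 0.24 in LC25 and 2.35 ± 0.21 in HC18 (SE, n = 12 libraries each), with peaks at ZT1.63, ZT2.18 and ZT1.58. For CG17777 the amplitudes were 1.51 ± 0.21, 1.42 ± 0.11 and 1.42 ± 0.11. The weakest of the 24 results was mAChR-B in LC25, with an amplitude of 0.81 ± 0.19 (limma adjusted p = 0.0462).

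**Figure D3:**
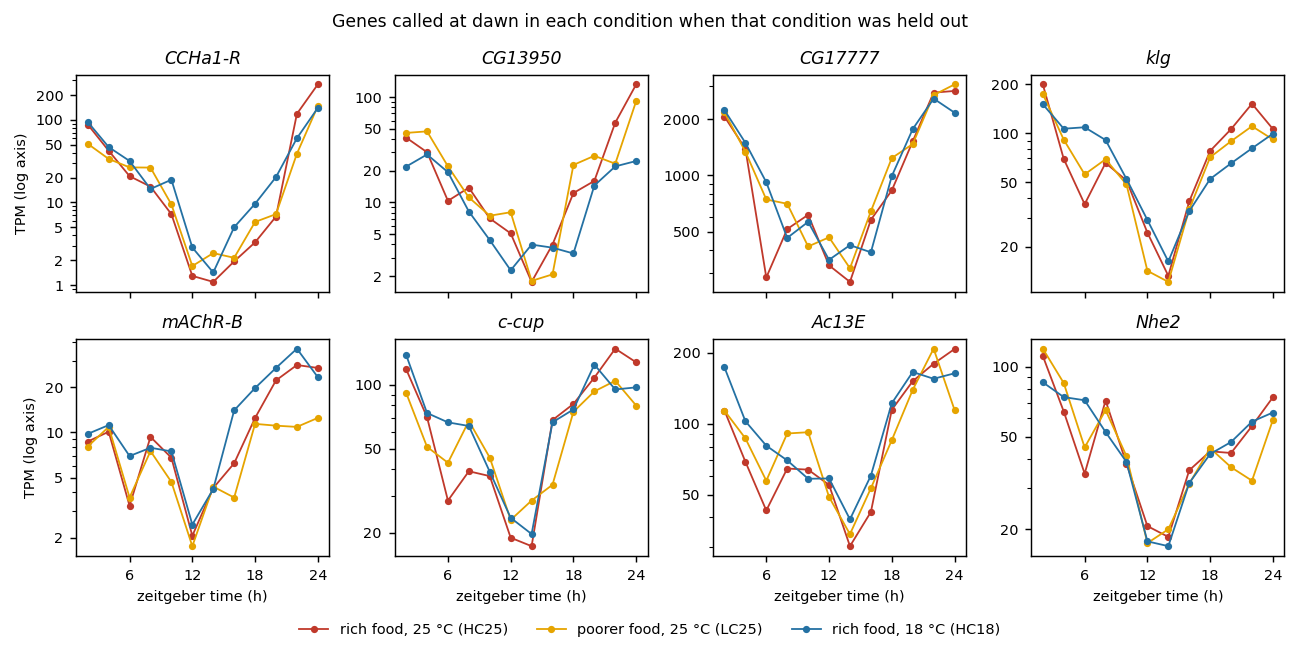
TPM (log axis) against zeitgeber time (h) for the 8 genes that passed with a dawn peak in each held-out condition, 1 point per library, coloured by condition. In every panel and condition the levels at ZT22, ZT24 and ZT02 lie above those at ZT12 and ZT14. In mAChR-B the ZT02 levels have fallen to 8.70, 8.07 and 9.79 TPM in HC25, LC25 and HC18. The HC25 library of ZT06 dips below its neighbours in CG13950, CG17777, klg, mAChR-B, c-cup, Ac13E and Nhe2.

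Some dawn genes differed in mean level between the temperatures. At 18 °C against 25 °C on the same food, 12 of 70 genes passed in limma (adjusted p below 0.05 over 8649 genes, from 12 time-matched differences), against 8.22% of all genes. Higher were 9 genes and lower were 3, against 5.92% and 2.3% of all genes. All genes here include those under 5 TPM, the level that the rule asked of the 70. When only genes of at least 5 TPM were tested, 13 of the 70 passed, 10 higher and 3 lower, against 11.1% of the genes tested. The median difference was 0.02 on the log2 scale over the 70 genes and 0.04 over all genes. After rescaling by the median ratio 17 passed, 7 higher and 10 lower, against 12.6% of all genes. Without the HC25 library of ZT06 15 passed, 9 higher and 6 lower, and without the 3 libraries that differ most 16, 10 higher and 6 lower, against 8.83% and 11.3% of all genes. Without the 4 HC18 libraries low in fmt only plh, MP1 and Idh passed, against 1.6% of all genes. The 12 include plh and CG14377, which met the rule's level threshold only through the temperature at which they are high.

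plh averaged 3.32 TPM in HC25, 3.83 TPM in LC25 and 13.5 TPM in HC18, so it met the rule's 5 TPM only through HC18, and its difference is given as a description. Its HC25 values ran from 0.48 through 2.47 to 8.48 TPM and its HC18 values from 4.47 through 12.1 to 32.1 TPM, and HC18 was higher in 12 of 12 pairs. The 2 ranges overlapped, since the lowest HC18 libraries lay below the highest of HC25. The fold was 3.67. In MP1 HC18 stood 2.51-fold above HC25 in 12 of 12 pairs (log2 1.33 ± 0.25 SE, limma adjusted p = 0.0011). Its HC25 values ran from 0 to 16.3 TPM and its HC18 values from 7.65 to 22.9 TPM. It overlaps Vps24 (79.3 TPM) on the opposite strand, and strand use in the counting is not stated.

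Nplp1 averaged 78.8 ± 31.7 TPM in HC25 and 176 ± 103 TPM in HC18 (SD, n = 12 each), 2.07-fold higher and higher in 12 of 12 pairs. Its HC18 high of 393 TPM was at ZT02. The sum of 7 markers of other clock neurons, Nplp1 among them, was highest in the HC18 library of ZT24 at 1019.5 TPM, where Nplp1 itself stood at 137 TPM. The part of other cells in the Nplp1 level was not tested. Without the 4 libraries low in fmt its log2 difference was 0.86 in place of 1.05, with a limma adjusted p of 0.053.

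Idh was 1.55-fold higher at 18 °C (log2 0.63 ± 0.13 SE, 11 of 12 pairs), with means of 228 ± 137 TPM in HC25 and 361 ± 203 TPM in HC18 (SD, n = 12 each). Oamb was 1.65-fold higher and CG33958 1.98-fold higher, each in 12 of 12 pairs. Pde11 (1.42-fold), CG18549 (1.38-fold) and CG13230 (1.58-fold) were higher in 10, 11 and 10 of 12 pairs. Lower were CG13375 (0.601 times its HC25 level), mthl14 (0.571 times) and CG14377 (0.545 times), which were higher in only 1, 2 and 2 of 12 pairs. CG14377 averaged 4.37 TPM in HC18 and met the 5 TPM only through the conditions at 25 °C, so its difference too is a description, and it overlaps GILT1 on the opposite strand. Without the 4 libraries low in fmt, which leaves 8 pairs, these calls other than that of Idh were lost. The log2 differences were then as large in CG13230 (0.82 in place of 0.66), Pde11 (0.53 and 0.50) and CG18549 (0.48 and 0.46). They were smaller in mthl14 (-0.72 in place of -0.81), CG33958 (0.67 and 0.99), Oamb (0.51 and 0.72), CG13375 (-0.49 and -0.73) and CG14377 (-0.44 and -0.87). CG13230 lay at the threshold (limma adjusted p = 0.0495, and from 0.0607 to 0.151 under 6 of its alternatives). Pde11 did not pass after rescaling (limma adjusted p = 0.0945). With a 24 h cosine in place of the time factor, Pde11 and CG18549 did not pass (limma adjusted p = 0.142 and 0.0510).

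**Figure D4:**
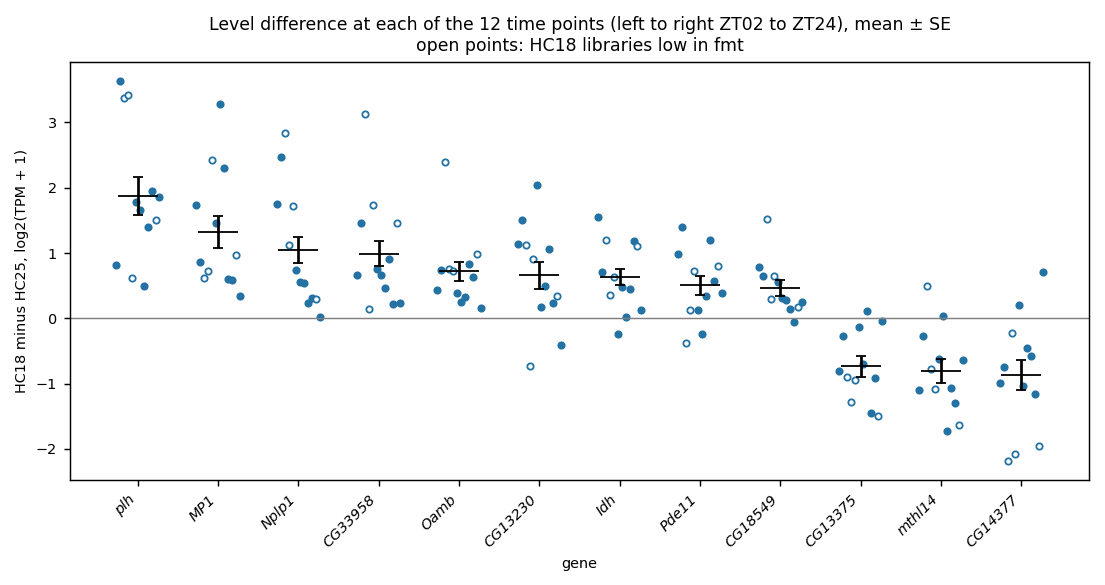
HC18 minus HC25 at each of the 12 time points (points, log2(TPM + 1), ZT02 to ZT24 from left to right) for the 12 dawn genes that differed in level at 18 °C, with the mean difference and its SE as bars. Open points are the HC18 libraries low in fmt. For plh, MP1, Nplp1, CG33958 and Oamb all 12 points lie above 0.

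On poorer food 0 of 70 dawn genes passed in mean level in limma, against 0% of all genes. At an unadjusted p below 0.05 it was 7 of 70 genes, against 5.24% of all genes: nrv1, mAChR-B, mthl14, ome, Lmpt and Gpdh1 with lower values and Oamb with a higher one. The smallest adjusted p among them was 0.873. nrv1 averaged 105 TPM in LC25 and 151 TPM in HC25 (log2 -0.43 ± 0.13 SE) and was higher in LC25 in 3 of 12 pairs. Both comparisons share the HC25 libraries as their control.

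Rhythms were compared between conditions too. Since the rule asked for a common curve, it favours genes whose rhythms differ little, and the counts are to be read with that. At 18 °C 0 of 70 genes differed in rhythm in limma, against 0% of all genes, and on poorer food 0 of 70, against 0%. At an unadjusted p below 0.05 it was 3 genes at 18 °C (Nplp1, Hey and Rim2), against 3.65% of all genes, and 2 on poorer food (CG2201 and CG17075), against 4.1%. The smallest p was that of Nplp1, whose difference between the HC18 and HC25 curves was 1.05 ± 0.24 (SE, log2 scale, limma adjusted p = 0.62), with peaks at ZT4.28 and ZT22.7.

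Peaks fitted in HC18 alone were later than those in HC25 alone in 58 of 70 genes, with a median difference of 1.08 h. It was 46 genes and 0.68 h without the HC25 library of ZT06, and 37 genes and 0.20 h without the 4 HC18 libraries low in fmt. For LC25 against HC25 the median was 0.68 h, and 0.12 h without the HC25 library of ZT06. These are descriptions, since the genes share the same libraries.

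Shapes over the day went beyond a single cosine. A 12 h term added to the 24 h curve passed in limma for 12 of 70 genes (adjusted p below 0.05), against 1.41% of all genes. Genes of strong rhythm leave more to such a term: of the 608 other genes past the level, amplitude and share thresholds, 9.21% passed. The rule asked the 24 h curve to account for a set share of variance, which disfavours a large 12 h part.

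**Figure D5:**
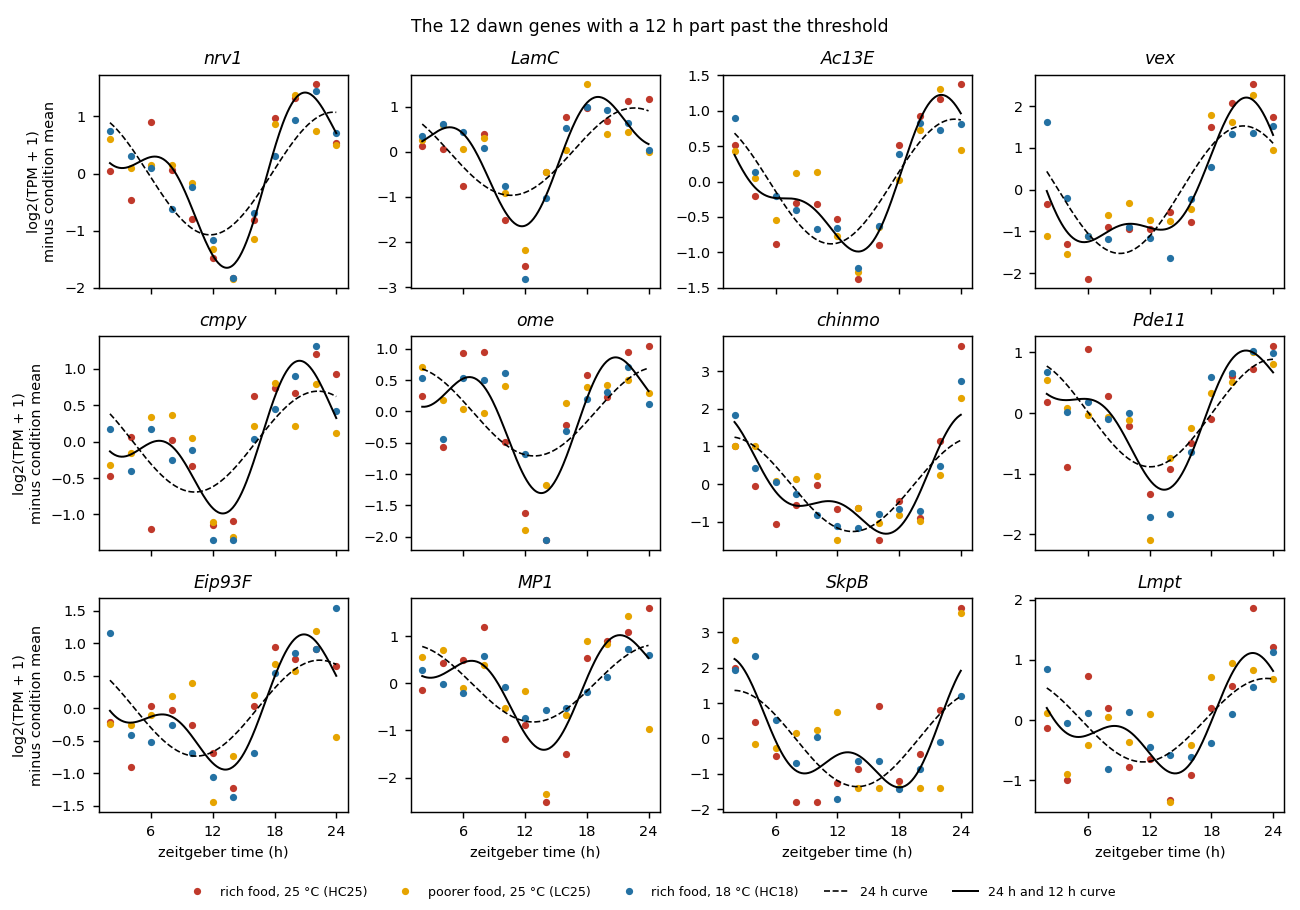
Levels of the 12 genes with a 12 h part (points, log2(TPM + 1) minus the condition mean, 36 libraries coloured by condition) against zeitgeber time (h), with the 24 h curve (dashed) and the sum of 24 h and 12 h curves (solid). The solid curves of nrv1, LamC, ome and MP1 have a lower second crest between ZT04 and ZT08. The points of chinmo lie highest at ZT24 in every condition. Those of SkpB lie highest at ZT24 in HC25 and LC25 but at ZT04 in HC18.

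nrv1 had the firmest 12 h part, with an amplitude of 0.71 ± 0.08 (SE, n = 36, limma adjusted p = 3.62e-06) and crests at ZT7.97 and ZT20.0. Its mean over the conditions rose from 30.5 TPM at ZT14 to 284 TPM at ZT22, fell to 112 TPM at ZT04 and stood at 152 TPM at ZT06, where HC25 alone was at 221 TPM in the library that stands apart. LamC had 12 h crests at ZT6.04 and ZT18.0 (amplitude 0.74 ± 0.12 SE) and fell to 3.77, 5.01 and 2.28 TPM at ZT12 in HC25, LC25 and HC18, the lowest value of each condition.

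In Ac13E (0.42 ± 0.07), vex (0.69 ± 0.13), cmpy (0.52 ± 0.10), ome (0.61 ± 0.12), Pde11 (0.46 ± 0.10), Eip93F (0.47 ± 0.11), MP1 (0.63 ± 0.14) and Lmpt (0.48 ± 0.11) the 12 h crests fell between ZT7.77 and ZT9.56 and again 12 h later. In chinmo (0.68 ± 0.15) and SkpB (0.94 ± 0.22) they fell at ZT0.21 and ZT1.33. The count was 19 without the HC25 library of ZT06, against 2.4% of all genes. It was 5 when the 4 HC18 libraries low in fmt were left out (nrv1, LamC, Ac13E, vex and chinmo), against 0.624% of all genes.

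The authors' deposited table of a rank test over all 36 libraries listed all 70 genes, 67 of them with the authors' adjusted p below 0.05, against 23.1% of its genes. The authors' deposited table put the phase of 41 genes from ZT21 to under ZT03 and that of 19 from ZT18 to under ZT21. For 3 genes the phase lay from ZT03 to under ZT06, and for 7 it lay from ZT06 to under ZT18, away from dawn. It rests on the libraries the rule used.

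Of the 70 genes 15 have 1 annotated transcript. In 16 genes at least 2 transcripts held 20% or more of the gene's TPM and averaged 5 TPM or more. In 8 of these every such transcript peaked at dawn with an amplitude of at least 0.4, but in MsR1 and Eip93F both transcripts carry identical values, so that they hold no separate measurement. In CG11191 the main transcript (79.0% of TPM) had an amplitude of 0.88 and a peak at ZT2.16, and the other peaked at ZT8.09 with a curve that took 1.31% of its variance. In Ate1 the main transcript peaked at ZT2.01 and the other at ZT4.52. Reads of overlapping transcripts are divided by the quantification, so such differences are uncertain.

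The genes lay on all major chromosome arms, with 16 each on 2L and X, 13 each on 2R and 3L and 12 on 3R. There were 3 pairs of dawn genes that follow each other on a chromosome: c-cup and wry, Hey and CG11191, and CG14377 and GILT1. Of the 70 genes 14 overlap another gene of at least 5 TPM, 13 of them on the opposite strand, among them Tim17b1, which lies over mtd (186 TPM). In these pairs, which include Tbh, Ac13E, LamC, mthl14 and CG13230, reads cannot be told apart where strand was not counted.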

How the data were processed

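RNA of sorted LNv neurons was amplified with T7 polymerase and sequenced, per the labels' protocols. The deposited tables hold TPM per transcript, made by the authors with kallisto per the submitters' processing notes, which name no version. No label or header names the transcriptome or says whether strand was used. Of 30485 transcripts 30246 were matched to genes in Ensembl 115, and their TPM was summed per gene. The authors' deposited rhythm tables hold scores and adjusted p-values, of which phases and p-values are quoted. A further 36 columns of per-sample values were not used.

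Values were analysed as log2(TPM + 1) with limma 3.58.1 in R 4.3.3. Fits held condition means and 24 h cosine and sine terms, with a 12 h pair where stated. Level tests used condition and time as factors. P-values were adjusted over the 8649 genes of at least 1 TPM by the Benjamini-Hochberg method. Amplitude is that of the fitted curve, and a fold is 2 to the power of a log2(TPM + 1) difference, which understates changes of low genes. The fits were tested on simulated data.

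Members, gene lists and tests were chosen with earlier results of these data known. Named genes were the 25 of largest amplitude, the 10 of highest level, those past a test (up to 10 per test), those at the thresholds, the 5 with the widest spread of peaks and reference clock genes. Other members were named by role. Alternatives were median-ratio rescaling, other pseudocounts and filters, and leaving out libraries.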

Additional observations from a re-analysis of the deposited data

How the results depend on the processing

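The rule gave 117 genes after median-ratio rescaling, 69 of them among the 70, and 46 with an amplitude of at least 0.6 or, separately, a share of at least 50%. Without the 4 HC18 libraries low in fmt 3 dawn genes passed at 18 °C and 5 had a 12 h part. The 12 h count was 19 without the HC25 library of ZT06. With no filter on level it was 6, against 0.522% of all genes. Held-out counts after rescaling were 42 for HC25, 38 for LC25 and 59 for HC18. With no filter they were 7 of 63 genes for HC25 and 8 of 86 for LC25, against 0.123% and 0.0797% of all genes. When the 3 libraries that differ most were left out, the held-out count was 31 for HC25. The other totals stayed within 1.5 times of those given, and the counts of 0 dawn genes stayed at 0. Dawn genes lower at 18 °C were 6 in place of 3 without the HC25 library of ZT06, or without the 3 that differ most, and 10 after rescaling. For single genes 17 level values and 26 values of the 12 h part no longer passed under an alternative, 91 and 70 did, and none turned its direction. A 24 h curve fitted to the rescaling factors had an amplitude of 0.11 (log2) and a peak at ZT14.9. That curve accounted for less than the 35% share that the rule asked of a gene. The factor of the HC25 library of ZT06 lay far below all others, and whether the fitted curve rests on that library was not tested. The cause of the shifts in the counts was not tested. A comparison of promoter motifs was not run. Single libraries per time and condition and unknown depth limit all values, most of all those of genes near 5 TPM.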
